A study of Rattus norvegicus with 12 samples.

Results

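The thick filament of the heart sarcomere is a bundle of myosin held together at its centre by the M-band. The genes described here encode its heavy chains (Myh6, Myh7, Myh7b), its light chains (Myl2, Myl3, Myl4, Myl7), the cardiac myosin-binding protein C (Mybpc3) and the M-band proteins myomesin 1 and 2 (Myom1, Myom2). Of these 10 genes, 8 had a probe set to which the platform annotation gives exactly 1 gene symbol, among 14324 genes with such a probe set and 27342 probe sets in all. Each of the 8 had 1 probe set. No such probe set carried Myl4 or Myom2, and these genes were not analysed here.

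Cardiomyocytes were isolated by enzymatic digestion from the hearts of Sprague-Dawley rats aged 2 days, plated as monolayers and cultured for 3 days before treatment. The cells of 6 cultures were then kept for 3 days in 50 µg/mL DEHP with 0.1% DMSO, and those of 6 control cultures in 0.1% DMSO alone. DEHP, di(2-ethylhexyl) phthalate, is a plasticizer of flexible plastics such as medical tubing. All cells came from 1 litter, so the tests measure the spread between cultures and arrays, and DMSO was present in both groups.

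Each myosin molecule joins a pair of heavy chains, which hold the ATPase, to regulatory and essential light chains that stiffen the lever arm. In rodents the fast alpha heavy chain replaces the slow beta chain in the ventricle after birth, a switch that thyroid hormone promotes and that hypertrophic stress turns back. Atria and ventricles also use different light chains, and the atrial forms are present in the fetal ventricle.

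The deposited value of a probe set is a ratio to its own median over the 12 arrays, given here as log2, so that 0 is that median. The values hold no expression level, and levels of different genes cannot be compared. The presence of a cell type can therefore not be read from its markers, and only differences between arrays are given. Control replicate 5 and DEHP replicate 6 stood apart from the other arrays. The SD of all log2 ratios was 0.37 and 0.27 in these, against 0.15 to 0.19 in the other 10. DEHP replicate 6 held the lowest DEHP value of 7 of the 8 genes, and control replicate 5 the lowest control value of 5 of the 8. Values without these 2 arrays are given below where they change a call, a direction or a size.

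Under DEHP, alpha myosin heavy chain rose, while beta heavy chain and the light chains Myl7 and Myl3 fell. By limma with Benjamini-Hochberg adjustment over all probe sets and a threshold of 0.05, 1 of the 8 genes rose (Myh6), 3 fell (Myl7, Myl3 and Myh7) and 4 did not pass (Myl2, Myh7b, Mybpc3 and Myom1). Over all 14324 genes, 14.4% rose and 10.2% fell. The median log2 fold of the 8 genes was −0.22, and that of all genes −0.02. Without control replicate 5 and DEHP replicate 6, Myl2 also passed, and 5 of the 8 genes were called. More genes passed in that fit as a whole: 4069 of 14324 (2244 higher and 1825 lower), against 3527 over all arrays.

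**Figure D1:**
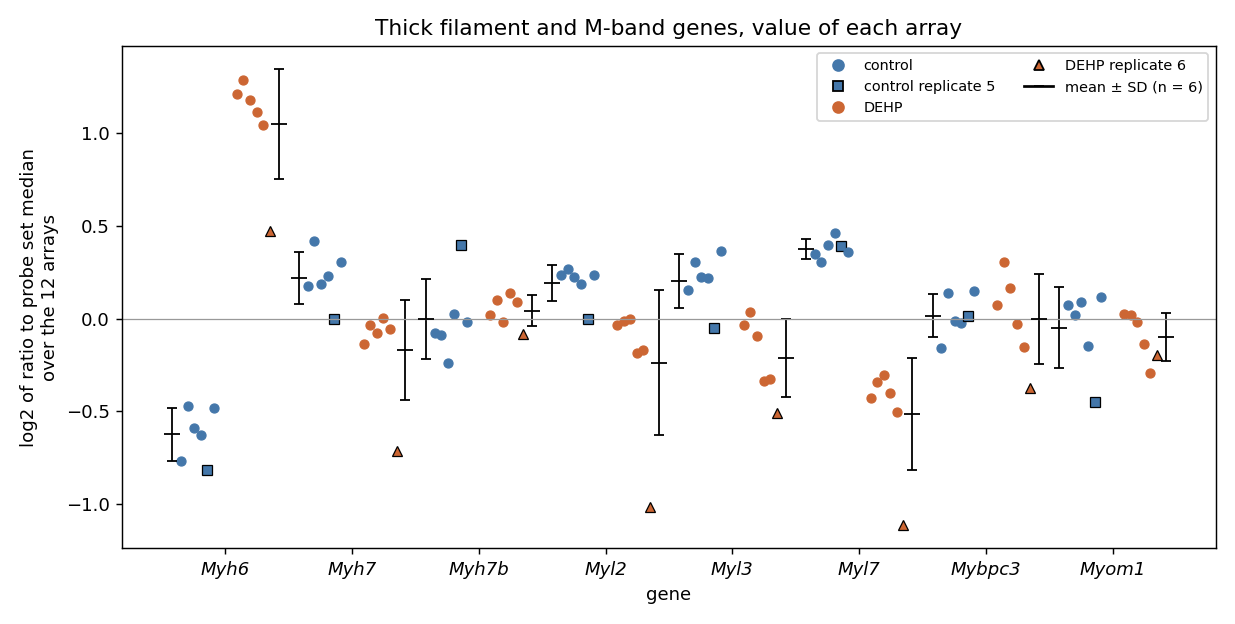
The vertical axis gives the log2 of each deposited ratio to the probe set's median over the 12 arrays, for 8 genes on the horizontal axis. Points are arrays, 6 control (blue) and 6 DEHP (orange), the square is control replicate 5, the triangle is DEHP replicate 6, and bars are mean ± SD. All 6 DEHP values of Myh6 lie above its controls, and all 6 of Myl7 and, narrowly, of Myl2 lie below. The groups of Myh7, Myl3, Mybpc3, Myom1 and Myh7b overlap.

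Myh6, which encodes the fast alpha heavy chain, had log2 ratios from −0.81 to −0.47 in controls, with a median of −0.61. Under DEHP they ran from 0.47 to 1.29, with a median of 1.15. Every DEHP array lay above every control array, and DEHP replicate 6, at 0.47, lay below the other 5, which began at 1.04. The control mean was −0.62 ± 0.14 and the DEHP mean 1.05 ± 0.30 (SD, n = 6 arrays each). The log2 fold was 1.67 ± 0.12 (SE), a 3.19-fold rise (limma adjusted p = 1.17e-06). In the order of log2 folds from the highest, Myh6 held rank 17 of 14324 genes. It was among the 2.83% of genes that rose by at least 1.5-fold and passed.

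Myh7, which encodes the slow beta heavy chain, ran from −0.0031 to 0.42 in controls, with a median of 0.21. Under DEHP it ran from −0.71 to 0.0031, with a median of −0.07. The groups overlapped only through control replicate 5 and DEHP replicate 4, whose values lay within 0.01 of each other. DEHP replicate 6 was the lowest array, and the next lay at −0.14. The fall was 1.31-fold (log2 fold −0.39 ± 0.11 SE, limma adjusted p = 0.033). This call was near the threshold: the adjusted p was 0.075, 0.053, 0.061 and 0.070 without control replicates 2, 3, 4 and 6, and 0.057 without DEHP replicate 1. Without control replicate 5 and DEHP replicate 6 the log2 fold was −0.32, with an adjusted p of 0.00061.

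Myh7b encodes a heavy chain of ancient origin found in slow muscle and heart. Its values ran from −0.24 to 0.40 in controls and from −0.08 to 0.14 under DEHP, with medians of −0.05 and 0.05. The groups overlapped, and the highest array of the 12 was control replicate 5. The log2 fold of 0.04 ± 0.09 (SE) did not pass (limma adjusted p = 0.79), with a 95% interval from −0.15 to 0.23. The value was 0.15 without the 2 arrays that stood apart (adjusted p = 0.073) and −0.0049 without control replicate 3.

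These heavy chain genes each carry a microRNA within their span, on the same strand, and the small RNAs derived from them are known as myomiRs. The mature sequences are shown because the heavy chain transcripts measured here are also their hosts; the microRNAs themselves were not analysed here. They are RefSeq entries on the build GRCr8, and capitals mark the seed, bases 2 to 8.
rno-miR-208a-3p, in Myh6, chr15:32395568-32395585, minus strand: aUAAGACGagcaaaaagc
rno-miR-208b-3p, in Myh7, chr15:32421648-32421665, minus strand: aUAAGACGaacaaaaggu
rno-miR-499-5p, in Myh7b, chr3:164570616-164570636, plus strand: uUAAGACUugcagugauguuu
The seeds of miR-208a-3p and miR-208b-3p are identical, and their host transcripts moved in opposite directions under DEHP. The coordinates are those of the RefSeq entries, not of array probes, since the sources used here name no build for the arrays.

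**Figure D2:**
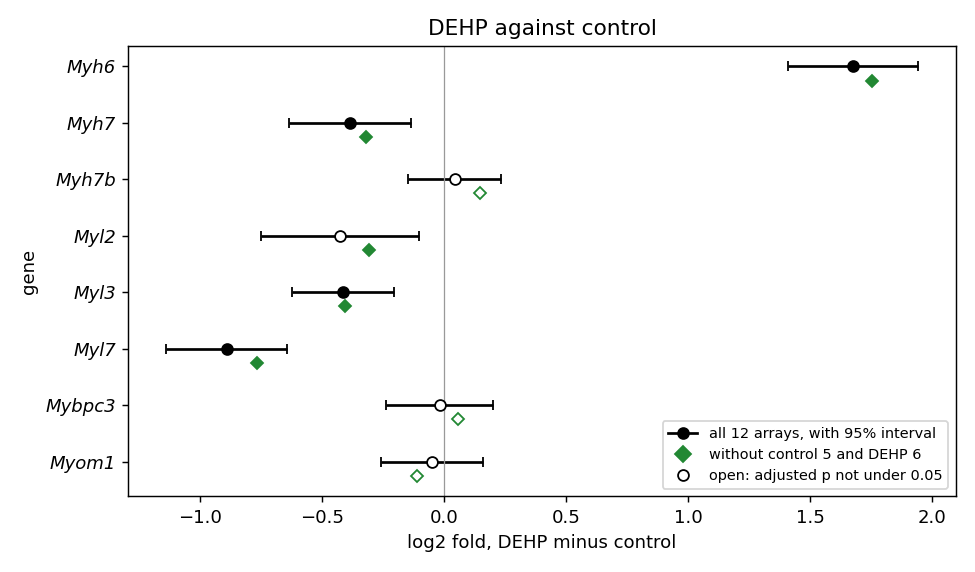
The horizontal axis gives the log2 fold, DEHP minus control, of each gene on the vertical axis. Black circles are the fit over all 12 arrays with 95% intervals, green diamonds the fit without control replicate 5 and DEHP replicate 6, and open symbols did not pass an adjusted p of 0.05. Myh6 stands at 1.67, Myl7 at −0.89, and Myh7, Myl2 and Myl3 between −0.43 and −0.39.

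The alpha and beta heavy chains were set against each other within each array, as the log2 ratio of Myh6 minus that of Myh7. In controls this difference ran from −0.94 to −0.77, with a median of −0.83, and under DEHP from 1.10 to 1.35, with a median of 1.22. The groups lay far apart, and no array stood apart within its group. The difference moved by 2.06 on the log2 scale, a 4.17-fold shift of Myh6 relative to Myh7 (exact two-sided permutation p = 0.00216, the smallest that 924 splits allow, and 0.00216 adjusted over 3 pairs). All 6 DEHP arrays were higher than all 6 controls.

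Within each group, the difference varied less from culture to culture than either heavy chain did. In controls the SD was 0.14 for Myh6 and 0.14 for Myh7, but 0.06 for their difference. Under DEHP the SDs were 0.30 and 0.27, against 0.10 for the difference. DEHP replicate 6, low in both genes, had a difference of 1.18, inside the range of the other DEHP arrays. The transcripts of these neighbouring genes are closely related, and whether the probes of either also bind the other was not tested.

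**Figure D3:**
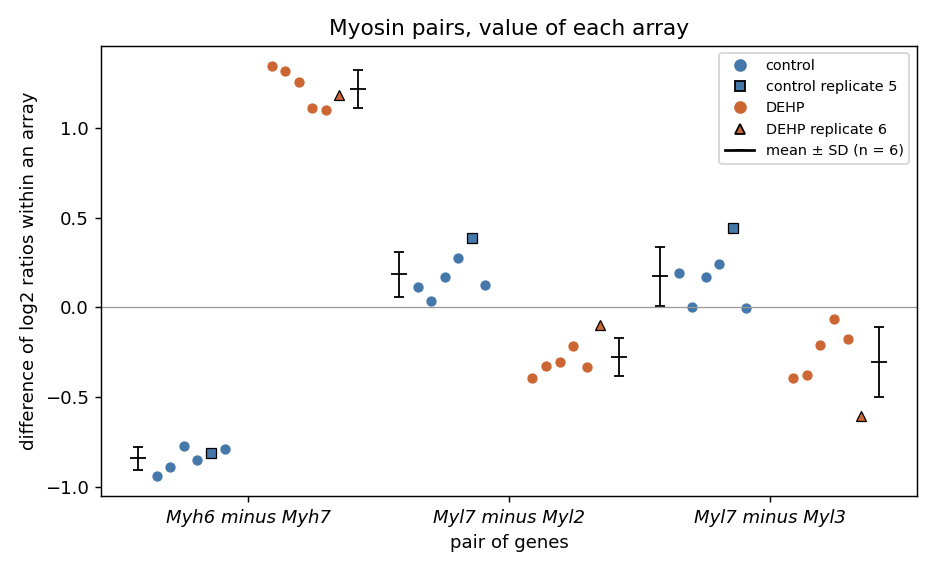
The vertical axis gives the difference of 2 genes' log2 ratios within an array, for 3 pairs on the horizontal axis. Points are arrays (6 control in blue, 6 DEHP in orange, with control replicate 5 as a square and DEHP replicate 6 as a triangle) and bars are mean ± SD. The groups do not overlap in any pair, and the shift is 2.06 for Myh6 minus Myh7 against −0.46 and −0.48 for the light chain pairs.

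The genes whose 12 values lay nearest those of Myh6, by root mean square difference of log2 ratios, were Ablim1 (0.16), the muscarinic receptor gene Chrm2 (0.25) and the lysosomal protease gene Ctsc (0.26). Ablim1 encodes an actin-binding LIM protein and had a log2 fold of 1.60 ± 0.08 (SE). For Myh7 they were Dock8 (0.08), Metrnl (0.09) and Ston1 (0.10). Among the 8 genes themselves, Myh7 and Myl2 were each other's nearest (0.13), and Myl3 lay nearest Myh7 (0.15).

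Myl7, the atrial regulatory light chain, was the most reduced of the 8 genes. Its log2 ratios ran from 0.30 to 0.46 in controls, with a median of 0.37, and from −1.11 to −0.30 under DEHP, with a median of −0.42. All DEHP arrays lay below all controls, and DEHP replicate 6 lay well below the next, at −0.50. Means were 0.38 ± 0.05 and −0.52 ± 0.30 (SD, n = 6 each). The fall was 1.86-fold (log2 fold −0.89 ± 0.11 SE, limma adjusted p = 0.000113), rank 179 from the lowest among 14324 genes. It was among the 2.79% of genes that fell by at least 1.5-fold and passed. Without the 2 arrays that stood apart the log2 fold was −0.77 (adjusted p = 2.33e-07).

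Myl3, the ventricular essential light chain, ran from −0.05 to 0.36 in controls and from −0.51 to 0.03 under DEHP, with medians of 0.22 and −0.21. The groups overlapped through control replicate 5, the lowest control. The fall was 1.33-fold (log2 fold −0.41 ± 0.10 SE, limma adjusted p = 0.00863), and the log2 fold was −0.41 also without the 2 arrays that stood apart.

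Myl2, the ventricular regulatory light chain, ran from 0.00094 to 0.27 in controls and from −1.02 to −0.00094 under DEHP, with medians of 0.23 and −0.10. All DEHP arrays lay below all controls, but by a narrow margin between control replicate 5 and DEHP replicate 3. DEHP replicate 6 lay far below the next DEHP array, at −0.19. The log2 fold of −0.43 ± 0.15 (SE) did not pass over all arrays (limma adjusted p = 0.068). Without DEHP replicate 6 it was −0.27 with an adjusted p of 0.0049, and without control replicate 5 as well it was −0.31 with an adjusted p of 0.00031. It also passed with array weights (0.020), after quantile normalization (0.0094), and when gene means or named probe sets alone were fitted (0.047 and 0.048). In the fits of gene means and of named probe sets, the log2 fold of Myl2 stayed at −0.43. Only the values fitted beside it differed.

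Of the 8 genes, 3 had groups that did not overlap (Myh6, Myl7 and Myl2), and over all genes this held for 16.9%. The atrial regulatory light chain moved further down than either ventricular light chain. Myl7 minus Myl2 ran from 0.04 to 0.39 in controls and from −0.40 to −0.10 under DEHP, with medians of 0.15 and −0.32. The groups did not overlap, and the highest array in each was control replicate 5 and DEHP replicate 6. The shift was −0.46 with and without the 2 arrays that stood apart, a 1.38-fold loss of Myl7 relative to Myl2 (exact two-sided permutation p = 0.00216, and 0.00216 adjusted over 3 pairs).

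Myl7 was also set against Myl3, a pair added because Myl4, the atrial counterpart of Myl3, was not analysed. Myl7 minus Myl3 ran from −0.0048 to 0.44 in controls and from −0.61 to −0.06 under DEHP, with medians of 0.18 and −0.29. No DEHP array reached the control range, though the nearest arrays, DEHP replicate 4 and control replicate 6, lay close together. The shift was −0.48, or 1.39-fold (exact two-sided permutation p = 0.00216, and 0.00216 adjusted over 3 pairs). It was −0.36 without control replicate 5 and DEHP replicate 6 (exact permutation p adjusted over the pairs 0.00794, the smallest that this number of arrays allows). Both light chain pairs share Myl7 and are not independent of each other.

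Mybpc3 encodes cardiac myosin-binding protein C, which tethers myosin heads along the thick filament. It ran from −0.16 to 0.15 in controls and from −0.37 to 0.30 under DEHP, with the control median at 0 and the DEHP median at 0.02. The groups overlapped throughout, and the DEHP arrays were the more spread. The log2 fold was −0.02 ± 0.10 (SE, limma adjusted p = 0.92), with a 95% interval from −0.24 to 0.20. Its sign turned to 0.056 without DEHP replicate 6 (adjusted p = 0.74), 0.012 when DEHP replicate 5 was left out, 0.0051 when control replicate 2 was, and 0.0073 when control replicate 6 was.

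Myom1 encodes myomesin 1, which cross-links myosin tails at the M-band. It ran from −0.45 to 0.12 in controls and from −0.29 to 0.02 under DEHP, with medians of 0.05 and −0.08. Control replicate 5 was the lowest array of the 12, and the groups overlapped. The log2 fold was −0.05 ± 0.10 (SE, limma adjusted p = 0.76), with a 95% interval from −0.26 to 0.16. It was −0.13 without control replicate 5 and −0.11 without DEHP replicate 6 as well (adjusted p = 0.36).

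Other genes of the thick filament, titin and the M-band went both ways. Of 9 measured among 12 listed, 4 rose, 2 fell and 3 did not pass. For this list and those below, the shares over all genes were 14.4% higher and 10.2% lower. Sqstm1 (log2 fold 0.63 ± 0.06 SE) and Nbr1 (0.47 ± 0.07), autophagy receptors that belong to the titin kinase complex at the M-band, rose. Mybpc2, the fast skeletal form of myosin-binding protein C, fell (−0.47 ± 0.06). The titin gene Ttn, named after its values were seen, rose over all arrays (0.41 ± 0.11, limma adjusted p = 0.023) and did not pass without control replicate 5 and DEHP replicate 6, where 3 rose and 2 fell. The median log2 fold of this list was 0.10.

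Among genes of myosin assembly, phosphorylation and turnover, 7 of 15 rose, 2 fell and 6 did not pass, with a median of 0.17. With the 2 arrays that stood apart left out, 7 rose, 3 fell and the median was 0.079. Trim63, which encodes the ubiquitin ligase MuRF1 that marks myosin heavy chains for degradation, rose (1.39 ± 0.08 SE), as did its relative Trim54 (1.14 ± 0.08). Mylk, the smooth muscle and nonmuscle light chain kinase, fell (−0.62 ± 0.05). The cardiac light chain kinase gene Mylk3 (0.32 ± 0.10) and the myosin chaperone genes Unc45b (0.38 ± 0.07) and Smyd1 (0.60 ± 0.12) were named after their values were seen, and each rose.

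Genes of the other myosin families fell more often than they rose. Of 6 skeletal and developmental myosin genes, 4 fell and 2 did not pass. Myh3, the embryonic heavy chain, fell by 0.63 ± 0.06 (SE) on the log2 scale, Myh1 by 0.42 ± 0.07 and Myh2 by 0.41 ± 0.07. Of 6 smooth muscle and nonmuscle myosin genes, 4 fell and 2 did not pass, among them Myh11, the smooth muscle heavy chain (−1.68 ± 0.10), its light chain partner Myl9 (−1.32 ± 0.13) and the nonmuscle heavy chain Myh10 (−0.85 ± 0.09). Without control replicate 5 and DEHP replicate 6, 1 of these 6 genes rose, which was Myh14, a nonmuscle heavy chain named after its values were seen.

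Among regulators of the myosin genes, falls outnumbered rises for the transcription factors. Rises outnumbered falls in the list of thyroid hormone receptors, partners and transport, in which Thrb fell and Thra rose near the threshold. Over all genes 14.4% rose and 10.2% fell, and the list counts were not tested against these shares. Of 13 cardiac transcription factors, 0 rose by limma, 4 fell and 9 did not pass. The falls were those of Myocd (−0.39 ± 0.06 SE), Tbx20 (−0.54 ± 0.09), Srf (−0.36 ± 0.07) and Gata4 (−0.27 ± 0.06). Myocd is a coactivator of Srf, and Tbx20 and Gata4 are factors of heart development, Gata4 being named after its values were seen. Of those that did not pass, also named after their values were seen, Mef2d stood at 0.14 ± 0.05 (SE, limma adjusted p = 0.095) and Tead1 at −0.22 ± 0.09 (adjusted p = 0.13), both with an unadjusted p under 0.05. Without control replicate 5 and DEHP replicate 6, Tead1 also fell (−0.35, adjusted p = 0.00037), making 5 falls, and after quantile normalization its adjusted p was 0.017.

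Thyroid hormone acts through the receptors Thra and Thrb, which bind DNA with a retinoid X receptor. Of 12 receptor, partner and transport genes, 5 rose, 1 fell and 6 did not pass. The coactivator genes Ncoa1 (0.49 ± 0.07 SE) and Med1 (0.29 ± 0.06) rose. So did the corepressor gene Ncor1 (0.32 ± 0.09) and the retinoid X receptor gene Rxra (0.23 ± 0.05), both named after their values were seen. Thrb fell (−0.29 ± 0.06). Thra, the main cardiac form, named after its values were seen, had a log2 fold of 0.14 ± 0.05 (limma adjusted p = 0.049, and 0.055 after median centring). In the fit that left out control replicate 5 and DEHP replicate 6, 6 of these genes rose and 1 fell.

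**Figure D4:**
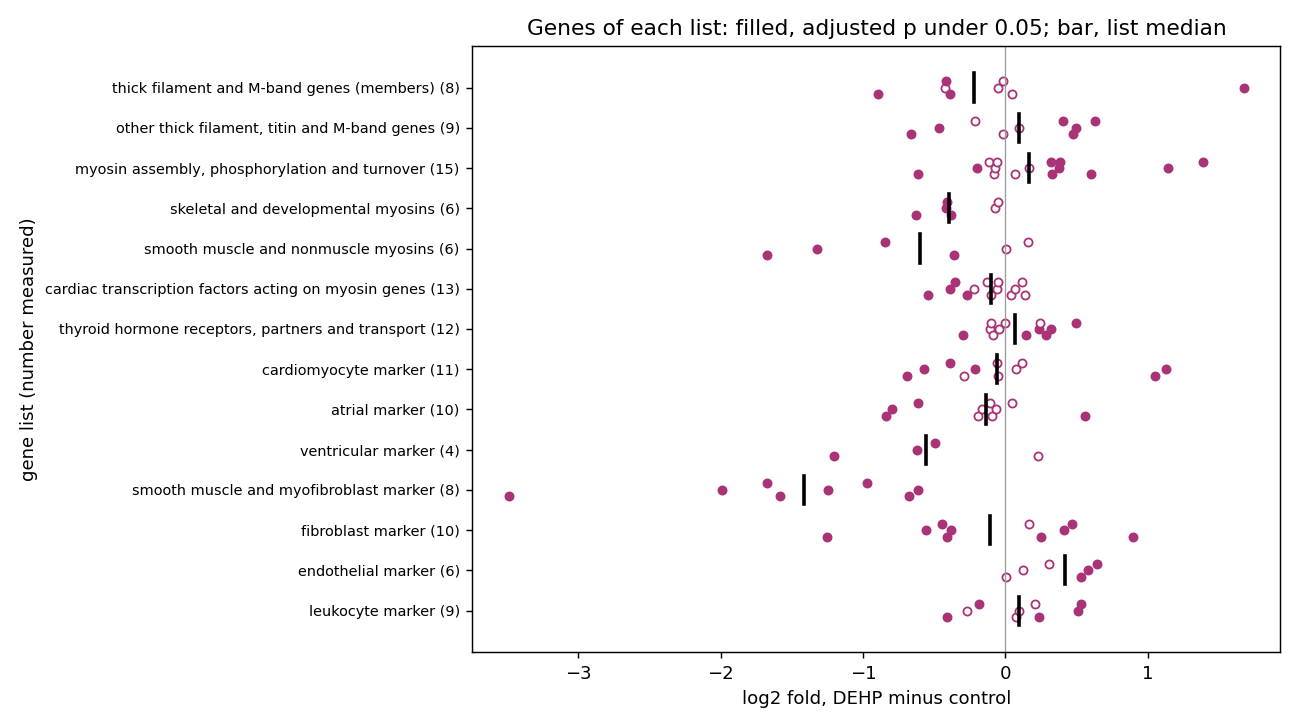
The horizontal axis gives the log2 fold, DEHP minus control, of each measured gene of the lists on the vertical axis, with the number measured in parentheses. Filled points passed an adjusted p of 0.05, open points did not, and the black bar is the list median. The smooth muscle markers lie lowest, with a median of −1.42, and the 8 thick filament and M-band genes have a median of −0.22.

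Markers of heart muscle and of other cell types moved in the same arrays. In these monolayers fewer cells of a type and less RNA per cell cannot be told apart. Of 11 cardiomyocyte markers 2 rose, 4 fell and 5 did not pass. For this and the marker lists below, the shares over all genes were 14.4% higher and 10.2% lower. Atp2a2, which encodes the SERCA calcium pump, rose (1.05 ± 0.07 SE), as did the calcium release channel gene Ryr2 (1.13 ± 0.10), and the tropomyosin gene Tpm1 fell (−0.39 ± 0.07). The counts were 3 higher and 4 lower without control replicate 5 and DEHP replicate 6. The mean log2 ratio of this list was −0.09 to 0.09 in controls and −0.03 to 0.20 in DEHP replicates other than 6, which stood at −0.33.

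Markers of both heart chambers were lower more often than higher. Of 10 atrial markers 1 rose, 3 fell and 6 did not pass. Nppa, the atrial natriuretic peptide (−0.80 ± 0.04 SE), and Gja5, an atrial connexin (−0.61 ± 0.06), fell, and the potassium channel gene Kcnj3 rose (0.56 ± 0.07). Of 4 ventricular markers 3 fell and 1 did not pass, the falls being Lbh (−1.21 ± 0.12), Kcne1 (−0.62 ± 0.09) and Hey2 (−0.49 ± 0.12), and without control replicate 5 and DEHP replicate 6 the remaining marker, Irx4, named after its values were seen, rose. The list mean lay between 0.04 and 0.18 in controls and between −0.30 and −0.06 under DEHP for atrial markers. For ventricular markers it lay between 0.21 and 0.37 in controls and between −0.48 and −0.16 under DEHP. DEHP replicate 6 was the lowest array for both lists, and the next DEHP array stood at −0.10 for atrial and −0.26 for ventricular markers. The part of either chamber in the fall of Myl7 was not tested.

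All 8 smooth muscle and myofibroblast markers fell. Those with the smallest p were Cnn1 (−3.49 ± 0.13 SE), Kcnmb1 (−1.59 ± 0.08) and Myh11. Their mean was 0.64 to 0.81 in controls and −1.22 to −0.62 under DEHP, lowest in DEHP replicate 6. Fibroblast markers went both ways, with 4 of 10 higher, 5 lower and 1 not passing. Pdgfra (0.90 ± 0.07) and Postn (0.47 ± 0.04) rose and Thy1 fell (−1.25 ± 0.14). The fibroblast list mean was −0.06 to 0.08 in controls and −0.26 to 0.02 under DEHP. Control replicate 5 and DEHP replicate 6 were the lowest of their groups, with the next arrays at 0.01 and −0.06.

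Of 6 endothelial markers 3 rose and 3 did not pass, and without control replicate 5 and DEHP replicate 6 there were 5 rises. Tie1 (0.58 ± 0.11 SE), Emcn (0.64 ± 0.15) and Cdh5 (0.53 ± 0.14) rose, with a list mean of −0.29 to 0.02 in controls and −0.21 to 0.51 under DEHP. The lowest DEHP mean was that of replicate 6, and the next stood at 0.17. Of 9 leukocyte markers 3 rose, 2 fell and 4 did not pass (3 rose and 3 fell without the 2 arrays that stood apart), with Itgam at 0.53 ± 0.09, Csf1r at −0.41 ± 0.06 and Aif1 at −0.19 ± 0.04. The leukocyte mean was −0.21 to 0.03 in controls and −0.02 to 0.15 under DEHP. Its lowest control was replicate 5, and the next stood at −0.13. The part of these cell types in the changes of the thick filament genes was not tested.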

How the data were processed

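RNA from each of 12 cultures was hybridised to its own Affymetrix array. RMA, with no version given, was used per the submitters' processing notes. The deposited values are linear ratios, and the median log2 over the 12 arrays was within 5e-07 of 0 for all 27342 probe sets. Their log2 was used with no further normalization. Brightness over background is not known, so dim probe sets cannot be recognised. Separately, the number of arrays limits the precision. Of all probe sets, 15097 had 1 gene symbol in the platform annotation, 323 several and 11922 none. A gene with several probe sets (499 genes) took the lowest-numbered. DEHP was compared with control by limma 3.58.1 in R 4.3.3 (lmFit and eBayes, two-sided, Benjamini-Hochberg over all probe sets), after a test on simulated data. Gene pairs were compared by an exact permutation test over arrays. The pairs planned for Myl4 and Myom2 could not be computed, and Myl7 minus Myl3 was added. Members, pairs and lists were chosen with earlier results of these data known. The text names all members, 3 genes per list (smallest p) and the 3 genes nearest Myh6 and Myh7 (provisional symbols left out), and marks others as named after their values were seen. Alternatives were quantile normalization, median centring, array weights, robust eBayes, a minimum fold of 1.2, a threshold of 0.01, gene means, named probe sets alone, the replicate number as a block, and arrays left out. Plots were drawn with matplotlib 3.10.9.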

Additional observations from a re-analysis of the deposited data

Results flagged for a closer look

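Of 22 sets of 6 arrays examined (8 genes and 3 pairs in each group), 5 held an array far from the other 5. Chance alone marks about 1 in 20 independent sets, but these sets share arrays and genes and are not independent. DEHP replicate 6 was the low array in 4 of them, with log2 ratios of 0.47 for Myh6 (next array 1.04), −0.71 for Myh7 (next −0.14), −1.02 for Myl2 (next −0.19) and −1.11 for Myl7 (next −0.50). Control replicate 5 was low for Myl2, at 0.00094 against 0.19 in the next control. Neither array was marked in any of the 3 pairs.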

How the results depend on the processing

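Myh6, Myl7 and the 3 pairs kept their direction and their call under every alternative run for them, with log2 folds of 1.63 to 1.79 for Myh6 and −0.93 to −0.77 for Myl7, and shifts of 2.04 to 2.16 for Myh6 minus Myh7, −0.50 to −0.42 for Myl7 minus Myl2 and −0.53 to −0.36 for Myl7 minus Myl3. The groups of each pair did not overlap. Leaving arrays out, blocking or taking gene means could therefore not change the direction or call of a pair, only the size. Against a minimum fold of 1.2, 870 genes and 2 of the 8 members passed, where Myh7 and Myl3 lost their calls. At a threshold of 0.01, 2339 genes passed in place of 3527, and Myh7 did not pass. With 1 array left out, 2997 to 3888 genes and 3 to 5 members passed. The sign of Mybpc3, never called, turned to 0.021 with quantile normalization, 0.033 with array weights and 0.055 without control replicate 5 and DEHP replicate 6, and ran from −0.080 to 0.056 with 1 array left out. That of Myh7b, never called, ran from −0.0049 to 0.12 with 1 array left out and was 0.15 without control replicate 5 and DEHP replicate 6. Myl2 was called in 6 of 22 alternatives, among them the fits of gene means and of named probe sets alone, which left its log2 fold unchanged. The causes were not tested. The replicate numbers were not taken to pair the arrays, since the labels do not say that a number pairs cultures. The correlation of deviations from the group means was 0.07 for number 6, 0.77 for number 5 and 0.13 to 0.35 for the others. It was positive for every number, and 3 of 6 control arrays correlated best with their own number. These values do not decide whether the numbers pair cultures. With the replicate number as a block, 4352 genes and 4 members passed. The pairs had an exact p of 0.0313 by sign flips, the smallest that 6 replicate numbers allow. Control replicate 5 and DEHP replicate 6 limit the precision of several members, and the missing expression levels keep dim probe sets from being recognised.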
